A study of Apis mellifera with 6 samples.

Results

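Queen-only sites are stretches of the honey bee (Apis mellifera) genome that were called as accessible chromatin in both queen brain libraries and in none of the worker or drone libraries. They were chosen by those calls: the peaks of all 6 libraries were merged wherever they shared at least 1 bp, and 358 of the 59043 merged sites on the 16 placed chromosomes met the rule, which is 0.606%. Of the 21352 sites called in both queen lists, 1.68% were queen-only. Every statement on presence or absence below restates this choice, so the values are given as a description with no test.

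The series profiled central brains of newly eclosed adult queens (Q), workers (W) and drones (D) by ATAC-seq, with 2 libraries of each phenotype, each made from a pool of 5 brains. The 3 phenotypes were offspring of 1 queen, sampled at emergence, and every brain was used without its optic lobes. The queens had been reared from larvae grafted into queen cups, the workers and drones came as capped brood from hive frames, and the hypopharyngeal glands were removed from the workers. Queens and workers are diploid females, drones are haploid males, and no treatment or engineered allele was used. Replicates were pools of related bees, what made them differ was not tested, and other colonies were not measured.

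In ATAC-seq the Tn5 transposase inserts sequencing adapters where DNA is not wrapped around nucleosomes, and short fragments pile up over promoters, enhancers and other regulatory DNA. A female larva becomes a queen or a worker according to its diet, through nutrient, insulin and juvenile hormone signalling, and the adult brains then serve very different behaviour. Drones arise from unfertilised eggs. Open sites held by 1 caste alone are 1 place to look for regulatory DNA that differs between castes.

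The brain label could be read only from calls near marker genes. Of 9 neuronal marker names, 4 matched a gene: Syt1, nAChRa1, nAChRb1 and Dop1. All 4 had summits in all 6 libraries. Their summed summits numbered 23 and 17 for queens, 34 and 32 for workers and 38 and 23 for drones. Of the 3 matched hypopharyngeal gland genes, Mrjp1 to Mrjp3, 2 had no summit in any library, and the only call was 1 summit in worker 1. The 5 fat body genes held 2 to 4 summits per library and the 4 photoreceptor genes, the opsins, held 2 or 3. These are counts of calls, not of cells, and they are not scaled to list length, which was shortest for the queens. A smaller share of a cell type cannot be told apart from less open chromatin in each cell or from a shorter list.

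The lists held 30538 and 28026 peaks for the queens, 36529 and 39158 for the workers and 38341 and 31921 for the drones, on all sequences. The number of peaks sets how many sites a list can share, and the queen lists were the shortest 2 of the 6. Peak names of queens and workers carry 1 common string that looks like a run name, and drone peak names carry none. What the string stands for is not stated. The labels give no batch, so whether the drones came from another run is not known. A difference between drones and the females therefore cannot be told apart from a possible difference in run. The shared string does not show that queens and workers were processed together.

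Few sites were left to the queens alone. Besides the 358 queen-only sites, both queen libraries shared 662 sites with exactly 1 other library, 1745 with 2, 2348 with 3 and 16239 with all 4. Where only 1 other library had a call it was worker 2 at 316 sites, worker 1 at 188, drone 1 at 111 and drone 2 at 47. The corresponding sets of the other phenotypes were larger, with 2099 worker-only and 2381 drone-only sites.

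Any pair of libraries leaves some sites to itself, so the queen pair was set beside the other 14 pairs. Queen 1 and queen 2 alone shared 358 sites. Queen 1 shared 500 with worker 2 alone, 373 with worker 1 alone and 354 with drone 1 alone, and queen 2 shared 397 with worker 2 alone. The lowest count was 79, for queen 2 and drone 2. The queen pair thus held fewer private sites than 3 of the mixed queen and worker pairs, while the worker and drone replicate pairs exceeded every mixed pair, of which the highest was 848 for worker 2 and drone 1. When every list was trimmed to its 28026 strongest peaks, the length of the shortest list, the queen-only count rose to 794, the worker-only count fell to 953 and the drone-only count to 1906, and 303 of the 358 sites still overlapped a queen-only site. Without worker 1 the queen-only count was 546 and without worker 2 it was 678, against 475 and 408 without drone 1 and drone 2, and a single queen list left 1709 (queen 2) or 2211 (queen 1).

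**Figure D1:**
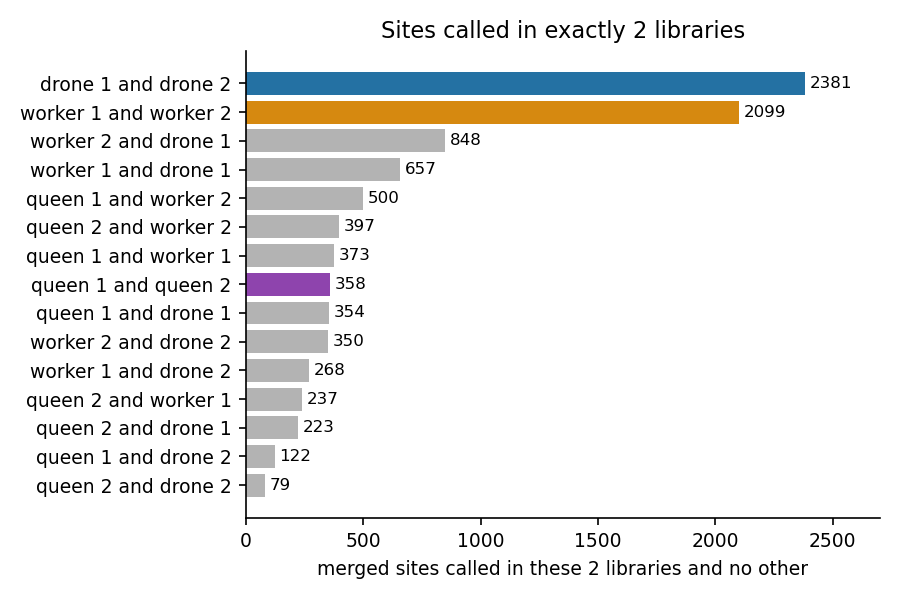
Bars give the number of merged sites on placed chromosomes called in exactly the 2 libraries named and in no other, with replicate pairs in colour and mixed pairs in grey. The queen pair, at 358, lies among the mixed pairs, and the worker pair at 2099 and the drone pair at 2381 lie above all of them.

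A queen-only site was typically narrow and weak. The width ranged from 72 to 526 bp with a median of 127 bp, against 241 bp for the sites that both queen lists shared with another library and 257 bp for the sites called in all 6 libraries. The fold enrichment, which is the pileup of fragments at the summit plus 1 over the local background plus 1, had a median of 4.47 in queen 1 and 4.71 in queen 2, against 6.47 and 6.51 for the shared sites. The median pileup was 14 fragments in queen 1 (range 7 to 91) and 12 in queen 2 (range 7 to 103). Both libraries had a lowest called pileup of 7, so the weakest members sat at the limit of calling.

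The same holds in the ranks of the lists. The median −log10 q was 5.43 in queen 1 and 5.36 in queen 2, where 2 is the calling threshold, and these medians stood at the 26.1 and 24.7 percentiles of the lists. Only 3 of the 358 sites were in the top 10% of both lists, 19 had a −log10 q of 10 or more in both, 150 reached 5 in both, and 75 stayed under 5 in both. Their strength was much like that of the other private sets: the worker-only medians were 5.81 and 5.93 and the drone-only medians 6.50 and 5.67. The queen summits of a site lay a median of 25 bp apart (highest 248 bp), against 23 bp for the shared sites, a distance that the narrow width and the rule keep small, and 356 of the 358 sites held exactly 1 peak in each queen list. Fold was higher in queen 1 at 170 sites and in queen 2 at the others, so neither library was on the stronger side as a rule.

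**Figure D2:**
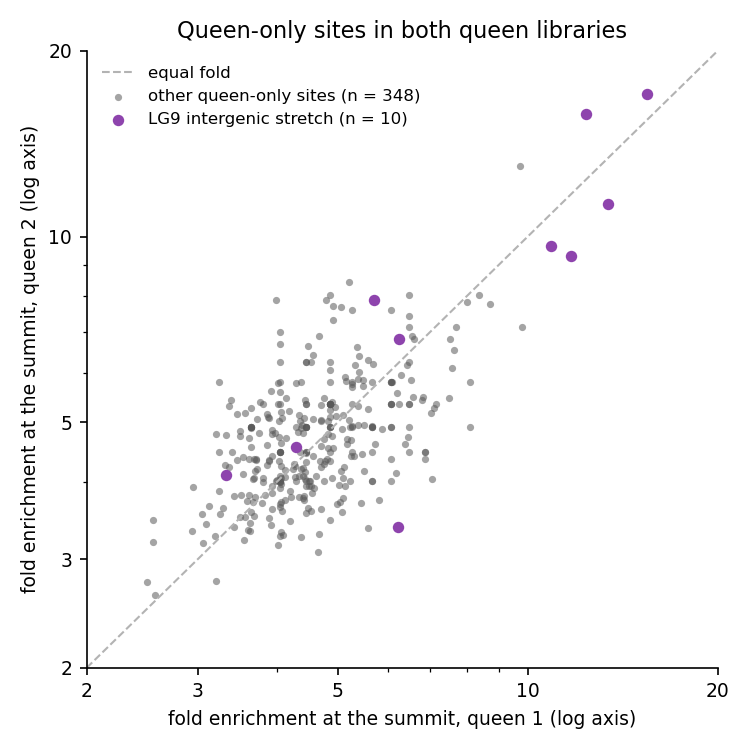
Each point is 1 of the 358 queen-only sites, with its fold enrichment in queen 1 on the horizontal and in queen 2 on the vertical logarithmic axis, and the dashed line marks equal values. Most points lie in a cloud around 4.47 and 4.71, and the points above 10 in both libraries all belong to a stretch of LG9, drawn in purple.

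A site without a call is not a site with a measured level of 0, because the lists hold no reads outside peaks. Whether a peak of queen height could have been seen elsewhere was therefore estimated by scaling each queen pileup to the background of the other library. On this scale 326 of the 358 sites would have passed the weakest call in worker 1, 328 in worker 2, 356 in drone 1 and 322 in drone 2, and 319 (89.1%, Wilson 95% interval 85.5 to 91.9) in all 4. The queen pileups are those that passed the rule, and are raised by that choice, which raises these shares. Scaled pileups were rounded down, which lowers them, and the background stood in for read depth. Whether the shares are too high or too low on balance was not tested.

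A second view is how often a queen peak of this strength was found again at all. Queen 1 held 8447 peaks with a −log10 q between 4.32 and 7.41, the middle range of the queen-only sites, and 54.8% of them overlapped a peak in queen 2. The same peaks were overlapped more often in worker 1 (67.7%), worker 2 (72.1%) and drone 1 (63.6%), and about as often in drone 2 (52.4%). Of 7706 queen 2 peaks between 4.20 and 6.95, 63.9% were overlapped in queen 1, 69.9% in worker 1, 74.8% in worker 2, 65.4% in drone 1 and 54.4% in drone 2. At the strength of a typical queen-only site, then, each other library held between 52.4% and 74.8% of the queen peaks, and the second queen library was not among the higher ones. The lists were not trimmed here. They ran from 28026 peaks in queen 2 to 39158 in worker 2, and a longer list can overlap more peaks. How many of the 358 sites are differences in accessibility and how many are missed calls was not tested.

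**Figure D3:**
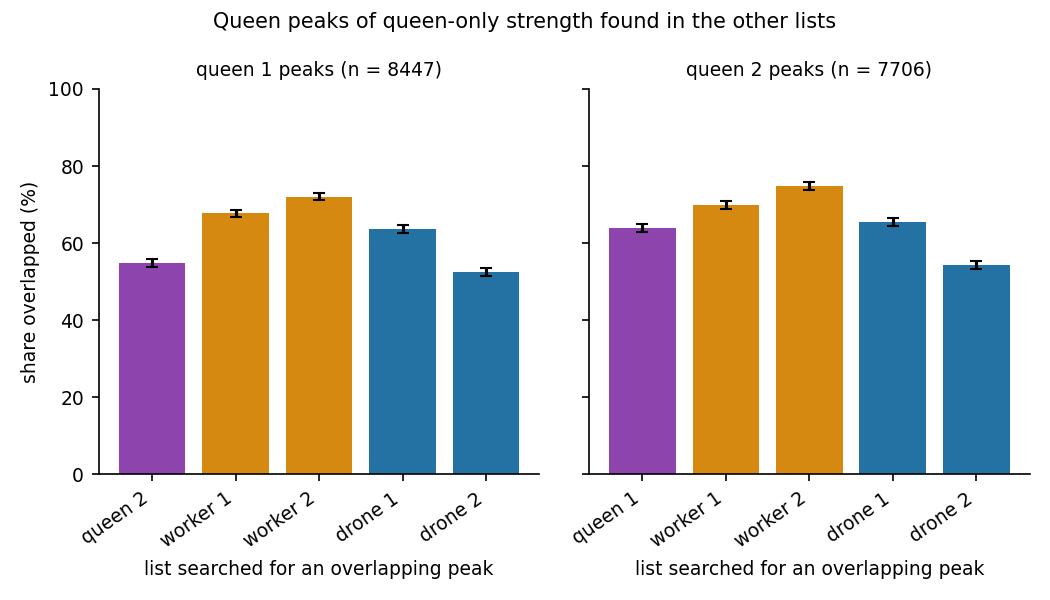
Bars give the share of queen 1 peaks (left) and queen 2 peaks (right) of the strength of the queen-only sites that overlapped a peak in each other list, with Wilson 95% intervals for counting error. Worker 2 holds the highest share in both panels, 72.1% and 74.8%, above the other queen library at 54.8% and 63.9%. The lists were not trimmed to equal length, and the worker 2 list is the longest.

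The sites also differed in how far they lay from the next worker or drone peak. The median distance was 1086.5 bp (quartiles 338 and 3006 bp), with 116 sites within 500 bp and 22 within 100 bp of such a peak, and 56 more than 5 kb from one. The farthest, at LG9 1797190-1797279, lay 40135 bp from the nearest drone peak and 68314 bp from the nearest worker peak, with folds of 4.86 and 4.47 in the queens. It fell in the lncRNA gene LOC113218985 and in LOC412787. At the edge of the rule, the sites just inside were a site at LG7 7177504-7177624 in LOC113218567 that touched a worker peak without sharing a base (fold 4.05 and 4.47 in the queens), and sites with gaps of 11 bp at LG10 2375156-2375237, 13 bp at LG1 2439874-2440066, 20 bp at LG3 7753871-7754033 and 41 bp at LG2 11322134-11322270. Just outside were sites of like strength lost to 1 overlapping peak: LG7 11983008-11983185 shared 4 bp with worker 1 (queen folds 4.14 and 4.44, worker fold 3.80), and the next 4 shared 16 to 23 bp with worker 2, drone 1, worker 2 and worker 1. The values on both sides of the edge overlap.

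Queen-only sites lay outside genes more often than other sites. All coordinates are on Amel HAv3.1 and genes are the 12255 placed genes of the RefSeq annotation of that assembly. Inside a gene lay 230 of the 358 sites (64.2%, Wilson 95% interval 59.2 to 69.0), against 83.1% of worker-only, 82.6% of drone-only and 80.9% of all merged sites. A protein-coding gene held 213, a long non-coding RNA gene alone held 17, and 128 were intergenic. More than 10 kb from any gene lay 49 sites (13.7%), against 5.91% of worker-only, 6.89% of drone-only and 6.13% of all sites, and the farthest of all, LG4 1378677-1378962, was 180096 bp away from one. Within 200 bp of either gene end lay 5.31% of the queen-only sites, close to the 5.04% of drone-only and 7.43% of worker-only sites and well under the 25.6% of the sites the queens shared with others. The gene table holds no strand or exons, so these ends are not separated into promoters and 3′ ends and exons are not told from introns.

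The stronger the queen-only site, the less often it was inside a gene, a split made after the values were seen. By the weaker of the 2 queen values of −log10 q, 153 of 208 sites under 5 were inside a gene (73.6%), 73 of 131 between 5 and 10 (55.7%) and 4 of 19 at 10 or more (21.1%, 8.51 to 43.3). Among the other sites in both queen lists the share hardly moved, at 80.8%, 79.6% and 81.4%. The 19 strongest sites include 7 of 1 stretch of LG9, and without that stretch 4 of 12 were inside a gene (33.3%, 13.8 to 60.9), and 66.1% of 348 sites overall. Of the sites called in both queen lists, the queen-only sites made up 5.38% under 5, 1.70% between 5 and 10 and 0.194% at 10 or more.

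**Figure D4:**
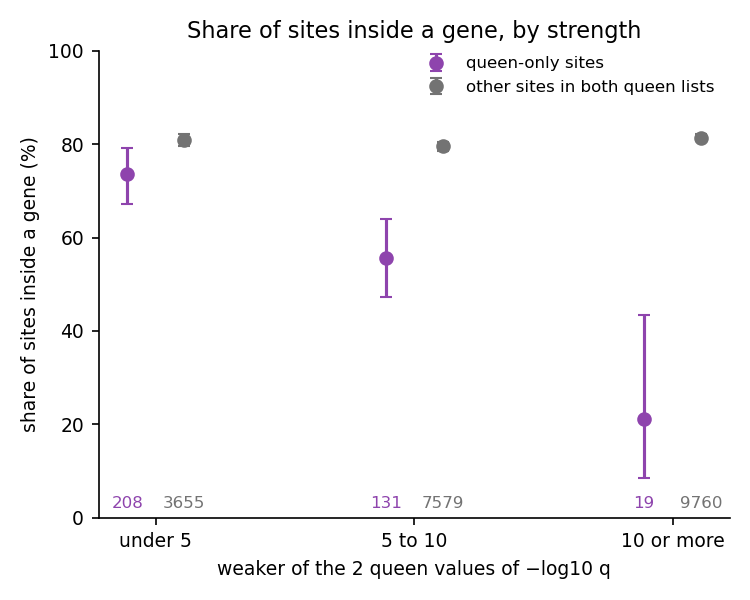
Points give the share of sites inside an annotated gene by the weaker of their 2 queen −log10 q values, with Wilson 95% intervals and the number of sites above the axis. The queen-only sites (purple) go from 73.6% to 21.1%, while the other sites in both queen lists (grey) stay between 79.6% and 81.4%.

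The strongest queen-only sites sit together on LG9. Between the genes LOC100576170, which ends at 2033682, and LOC413382, which starts at 2072190, lies an intergenic stretch of 38507 bp with 10 queen-only sites in 2 runs, 4 sites at LG9 2038293-2045436 and 6 at LG9 2055595-2063921. In this stretch queen 1 had 14 peaks, queen 2 had 15, worker 1 and worker 2 had 1 each, and drone 1 and drone 2 had none. The worker peaks, with folds of 6.30 and 6.36, lay on the same site, which both queen libraries also called, and the remaining sites were called in queen 1 alone (3) or queen 2 alone (3). The highest pileup in the stretch was 101 fragments in queen 1 and 103 in queen 2, against 12 in each worker library.

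Within the stretch, the highest ranked of all 358 sites was LG9 2061382-2061499, with 91 fragments and a fold of 12.4 in queen 1 and 103 fragments and a fold of 15.8 in queen 2. The next was LG9 2040728-2040895, with folds of 15.5 and 17.02, and then LG9 2041528-2041660, with 13.4 and 11.3. These 3 are the only queen-only sites with a fold of 10 or more in both libraries. The fourth, LG9 2055595-2056120, had folds of 11.7 and 9.31 and is the widest of all at 526 bp. LG9 2063668-2063921 had folds of 6.25 and 6.81 and LG9 2045326-2045436 folds of 10.9 and 9.67. The local background that the peak caller set for these peaks was also raised in the queens, with a median of 3.50 times the genome-wide value in queen 1 and 1.90 times in queen 2, against 1.00 at the only peak of each worker library. The part of the raised background in the calls was not tested.

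**Figure D5:**
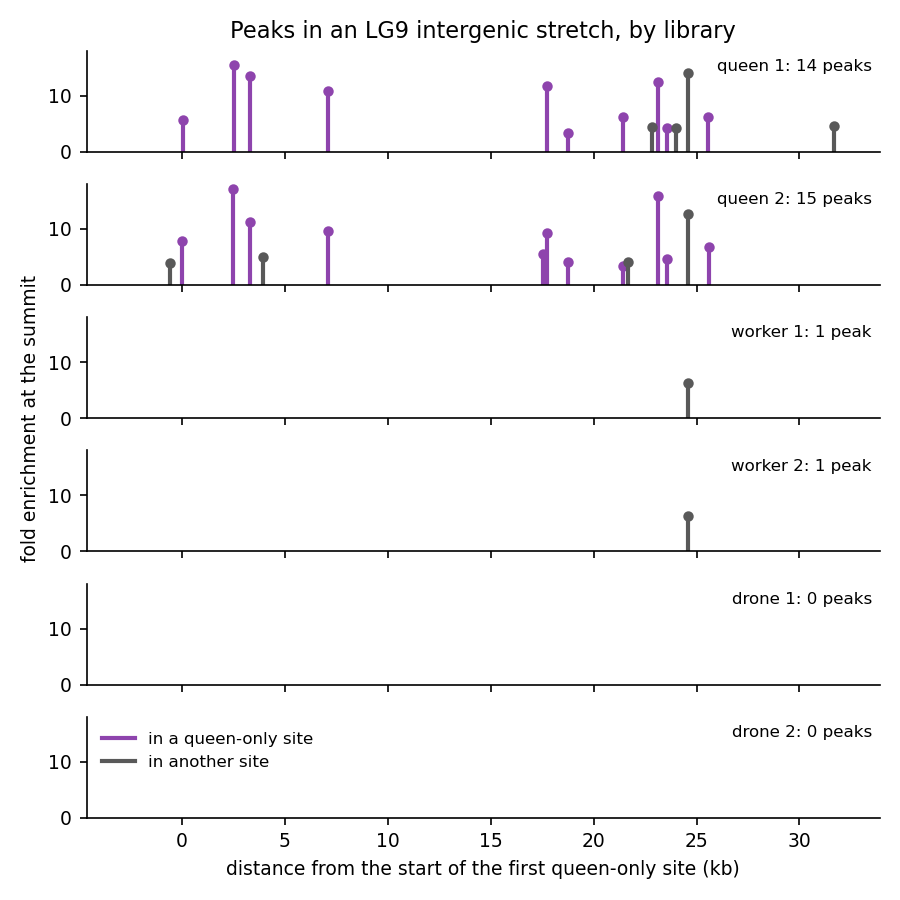
Each stem is the summit of 1 peak in the LG9 intergenic stretch, at its distance in kb from the start of the first queen-only site and with its fold enrichment as height, in 1 panel per library. Queen 1 and queen 2 hold 14 and 15 peaks up to folds of 15.5 and 17.02, the worker libraries hold 1 peak each at folds of 6.30 and 6.36, and the drone panels are empty.

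LG9 held 28 queen-only sites among its 2668 merged sites, or 10.5 per 1000, and 18 sites or 6.79 per 1000 without the stretch. LG16 was the highest at 10.7 per 1000 (22 sites, Wilson 95% interval 7.05 to 16.1) and LG10 followed LG9 at 8.59 (29 sites). The lowest were LG15 at 3.22 (8 sites, 1.63 to 6.35), LG4 at 3.64 and LG11 at 3.67, so the intervals of the highest and lowest chromosomes do not overlap, but 16 chromosomes were ranked.

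Away from that stretch the sites were mostly solitary. Of the 358 sites, 308 had no other queen-only site within 10 kb and 30 lay in runs of 2. One further run reached 4 sites, at LG3 22831-34308 near the start of the chromosome, over the lncRNA gene LOC100577216 and the lower end of the protein-coding gene LOC409422. Its folds were low, at most 3.89 in queen 1 and 4.80 in queen 2 over all peaks there, and 1 peak in each worker library and 4 in each drone library lay between its sites, with drone folds up to 9.52 and 12.8. Over the first 38014 bp of LG3 the 6 libraries held 26, 24, 6, 5, 16 and 13 peaks (Q, W, D, replicate 1 then 2), so that the workers, not the drones, had the fewest calls there. Runs of 3 lay at LG1 17831940-17839319 and LG10 1160134-1161069, both intergenic. The LG1 run held 1 worker 2 peak with a fold of 3.91 and no worker 1 or drone peak, and the LG10 run held no worker or drone peak.

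Of the strong sites elsewhere, LG14 3154274-3154442 had folds of 9.72 and 13.0, 24 and 29 fragments, and lay 45273 bp from LOC102654450, the nearest gene. LG13 4010764-4010951 had folds of 8.70 and 7.76 and lay 22959 bp from LOC102655078. LG15 2784012-2784118, with 6.43 and 6.18, is the only one of the 12 highest ranked sites inside a gene, LOC100578262, and had worker and drone peaks within 323 and 313 bp. LG6 1267-1669, at the very start of the chromosome sequence and the second widest, had 7.59 and 6.13 and other peaks within 173 bp. LG1 7217183-7217502 had 8.37 and 8.03 and LG12 7648586-7648677, 3667 bp from the tRNA gene TRNAV-UAC, had 8.001 and 7.82. The next widest sites were LG3 11734984-11735324 (341 bp) in LOC408733, LG8 3295921-3296252 (332 bp) in LOC100578051 and LG7 2259957-2260279 (323 bp) in LOC413383, all weak, with folds between 3.75 and 4.81.

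The surroundings of the queen-only sites held somewhat more queen peaks when both queen lists chose the sites. Excluding the sites themselves, 1.86% of queen 1 and 1.78% of queen 2 peaks had their summit within 5 kb of a queen-only site, against 1.59% and 1.60% in the workers and 1.56% in each drone library. The means were 1.82% ± 0.0590 (SD, n = 2) for queens, 1.59% ± 0.0111 for workers and 1.56% ± 0.00357 for drones. The queen excess was larger within 2 kb (1.03% against 0.801% and 0.786%) and smaller within 20 kb (6.10% against 5.85% and 5.70%). Queen peaks in the sites were left out of the count but kept in the total, which lowers the queen shares. Worker and drone lists hold no peak in the sites. No test was made, because the calls chose the sites. Each queen library was also left out in turn, with the sites chosen on the other queen list alone. The queen share divided by the mean of the other libraries then went from 1.16 to 0.941 without queen 1 and 0.903 without queen 2. Those values rest on 1709 and 2211 sites, whose queen peaks stay in totals of 27298 placed peaks in queen 2 and 29725 in queen 1. This lowers them by construction. How much of the fall comes from this was not computed, and neither value shows a queen excess.

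A queen-only site lay in or within 2 kb of 316 of the 12255 genes (2.58%), against 1579 genes for worker-only and 1551 for drone-only sites. Taken per site, the shortest gene around each of the 230 sites inside a gene had a median length of 75806 bp. The same median was 63651 bp for worker-only and 91368 bp for drone-only sites. It was 57091 bp for all merged sites and 28272 bp for sites of all 6 libraries. Of the 316 genes, 24 had 2 or more sites: LOC409422 had 6 and LOC100577216 had 5, largely the same sites of LG3, LOC725024 on LG9 had 4, and LOC113218862 on LG6 and LOC410882 on LG2 had 3. In LOC725024, which spans 572103 bp, the 4 sites had folds between 4.01 and 5.22 and stood among 60, 50, 55, 76, 69 and 47 summits in the 6 libraries. In LOC410882 the summit counts were 21 in each queen library, 25 and 26 for workers and 13 and 15 for drones. Both genes were thus called at many sites in every library.

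LOC102655707, a long non-coding RNA gene on LG16, had 2 sites, with folds of 5.49 and 5.85, and 5.26 and 7.59, among 7 summits in each queen library, 4 and 5 in the worker lists and 1 and 0 in the drone lists. Of the 7 queen summits, 2 are the queen-only sites that the rule chose, so the difference from the workers is set by the choice. TyrR, a tyramine receptor, had 2 sites, LG1 15778515-15778698 (folds 4.42 and 3.74), which also lies in LOC412949, and LG1 15838188-15838422 (3.40 and 4.48), the second also within Ks-1, a non-coding RNA known from mushroom body neurons, but its summit counts were like in all phenotypes, at 9 and 8, 9 and 12, and 12 and 8.

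Calls were confined to queens at few genes. Summits were counted in the gene or within 200 bp of it. Of the 12255 genes, 13 had summits in both queen libraries and none elsewhere, 8 of them protein-coding, against 122 for workers and 82 for drones. These counts use lists of unequal length. At equal list length the queen-only, worker-only and drone-only sites numbered 794, 953 and 1906, and the gene counts were not repeated there. Each of the 13 queen genes had 1 queen-only site in it or within 2 kb, so they largely restate the rule. They include Tpx-3, a thioredoxin peroxidase gene, with 1 summit in each queen library. Its site, LG15 4365432-4365521, crosses the gene's lower coordinate and had folds of 5.58 and 5.25. LOC551479 on LG3 had 2 summits in each queen library, and LOC102655983 on LG11 had 2 and 1.

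The gene lists were chosen with earlier results of these data known. Most of the hormone and caste genes act in ecdysone, juvenile hormone and insulin signalling or encode royal jelly proteins, and the list also holds Vg, the yolk protein vitellogenin, Mad, a SMAD of the BMP pathway, and the DNA methyltransferase genes Dnmt3 and Dnmt1a. Of the 23 genes matched by symbol, 2 had a queen-only site. In Br-c, the broad complex transcription factor of the ecdysone response, the site LG13 3315142-3315248 had folds of 3.88 and 3.50 with 11 and 9 fragments. The gene carried 13 and 8 summits in queen 1 and queen 2, against 12 and 20 for workers and 11 and 14 for drones. In InR-2, an insulin receptor, the site LG2 14588574-14588743 had folds of 3.89 and 4.34, and a worker-only site lay in the same gene. Over the 23 genes the queen-only sites were 2 of 437 merged sites (0.458%), beside 0.606% in the series, with 7 worker-only and 21 drone-only sites. Mad alone held 115 of the merged and 11 of the drone-only sites. Matched by synonym too, and with Mad, Dnmt3 and Dnmt1a left out, a choice made after the values were seen, the count was 2 of 318 (0.629%). Ecr, Usp, E74, E75, Kr-h1, Mad, Mblk-1, Vg and Dnmt3 had none.

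The receptor list, of receptors for biogenic amines and neurotransmitters and the protein kinase gene For, held 4 queen-only sites in 4 of the 21 genes matched by symbol, each with 1. These were the nicotinic acetylcholine receptor subunit genes nAChRa4 (folds 5.10 and 5.15), nAChRa6 (4.45 and 4.31) and nAChRa7 (4.05 and 4.47), and the serotonin receptor gene 5-HT2beta (4.71 and 5.05). All lay far inside the gene, between 27443 and 178418 bp from its lower end, and had 9 to 12 fragments. They made up 4 of 388 merged sites (1.03%), beside 10 worker-only and 24 drone-only sites. Matching by synonym, added after the values were seen, brings in TyrR with its 2 sites and DopR2 with none, and without For the count was then 6 of 397 merged sites (1.51%) in 5 of 22 genes. The sex determination genes Csd, Fem, Dsx and tra2 had none among 33 merged sites. Whether these lists differ from the 0.606% of all sites was not tested.

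Among genes with a symbol of their own, 28 of 819 had a queen-only site, beside 316 of all 12255 genes (2.58%). The following were picked after their values were seen. Nrx-1 and NLG-3, a neurexin and a neuroligin of the synaptic adhesion machinery, had sites with folds of 4.57 and 5.05, and 4.45 and 4.02. Nrx-1 spans 337998 bp with 22 to 36 summits per library, and NLG-3 spans 249371 bp with 6 to 15. The brp gene, whose Drosophila counterpart encodes an active zone scaffold, had folds of 3.71 and 4.36, among 9 to 13 summits per library. SIFR, a SIFamide neuropeptide receptor gene, had 3.25 and 3.55, among 11 to 22 summits. The strongest of the picked sites lay just outside the lower end of Foxp, a forkhead transcription factor gene, at LG13 5291951-5292078 with folds of 4.91 and 7.71 and 17 and 26 fragments, and a worker or drone peak lay 302 bp away. The nearest gene of that site is LOC102655054, at 97 bp. Sites also lay beside AChE-2 (an acetylcholinesterase), GstD1 (a glutathione S-transferase), Or107 (an odorant receptor), and the microRNA genes Mir2788 and Mir6042, with folds between 4.19 and 6.52. The site beside Or107 lies inside LOC102653810 and the one beside Mir2788 inside LOC726912. The site LG8 11854529-11854644, with folds of 6.47 and 4.47, lay between the neighbouring genes Hex70a and HEX70b, which encode hexamerin storage proteins of the fat body, within 2 kb of each. HEX70b had 2 and 1 summits in the queen lists, 0 and 1 for workers and none for drones, counted to 200 bp outside the gene, and Hex70a had 1 and 0, 1 and 1, and 1 and 1.

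Queen-only calls were far more frequent on scaffolds that are not placed on a chromosome, which the rule leaves out. Of 1093 merged sites there, 107 were queen-only (9.79%, against 0.606% on the chromosomes).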

How the data were processed

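Peak lists of the nucleosome-free class were used, 1 per library, for 2 queen, 2 worker and 2 drone pools. Per the study's methods the authors mapped reads with BWA (0.7.17 in the submitters' processing notes, with bcl2fastq 2.17), kept fragments of up to 100 bp and called peaks per library with MACS2 at a genome size of 270000000 bp. The treatment of duplicate fragments is not given in the sources used here. The deposited lists give the authors' fold enrichment (a ratio of pileup to local background), −log10 of the p-value and q-value, and a score derived from the −log10 q. No list holds a −log10 q under 2, so a q-value of 0.01 was the threshold.

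The members, gene lists and comparisons were chosen with earlier results of these data known. Peaks were merged at an overlap of 1 bp with pandas 2.3.3, numpy 2.4.6 and scipy 1.17.1, and figures were drawn with matplotlib 3.10.9. Pileup and background were solved from the fold and the Poisson p-value, with at least 99.997% of peaks solved to within 5% of a whole-pileup step, and the commonest background of a list was its genome-wide value (1.04 to 1.47 fragments). The solution and the merging were tested on simulated data. Depth in reads was not used. The lists hold no reads outside peaks, and the mapped reads per library that the paper reports were not brought in. The spread of 2 replicates per group limits precision. Wilson 95% intervals cover counting error only. No test was made, because the calls chose the sites.

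Genes came from the RefSeq table of Amel HAv3.1, of which 12255 of 12398 lie on the 16 placed chromosomes. No genome sequence of this assembly was used, so no site sequence, GC content or motif is given. Named were the 12 sites ranked best by −log10 q, averaged over the queen lists, runs of 4 or more sites within 10 kb of each other, the 5 sites on each side of the rule's edge, the 5 widest sites, genes with 2 or more sites within 2 kb, and listed genes with a site, with the other names marked in the text as picked afterwards. Matching listed genes by synonym was added after the data were seen. Alternatives were a −log10 q of 5, equal list lengths, an overlap of 50%, a distance of 500 bp from other peaks, other windows and leaving out each library.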

Additional observations from a re-analysis of the deposited data

Results flagged for a closer look

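Queen-only sites on unplaced scaffolds were called to attention because they lie outside the sequences the comparisons used. There were 107 of them, or 23.0% of the 465 queen-only sites over all sequences, against 10 of 2109 worker-only sites (0.474%) and 34 of 2415 drone-only sites (1.41%). They lay on 46 scaffolds, with 20 on one and 8 on the next, and had median folds of 4.70 in queen 1 (range 2.25 to 11.2) and 4.72 in queen 2 (range 2.31 to 11.9). Unplaced scaffolds held 2.66% and 2.60% of all queen peaks, 1.5% and 1.37% of worker peaks and 1.54% and 1.67% of drone peaks.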

How the results depend on the processing

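The number of queen-only sites, 358, was 299 with a −log10 q of at least 5 in every list, 332 when the queen peaks had to share 50% of the shorter, and 242 with no worker or drone peak within 500 bp. It was 150 when the −log10 q of 5 was asked of the queen peaks alone and 794 at equal list length. Leaving out 1 library gave 408 to 2211: 1709 without queen replicate 1, 2211 without queen replicate 2, 546 without worker replicate 1, 678 without worker replicate 2, 475 without drone replicate 1 and 408 without drone replicate 2. A rule with fewer lists to meet, or to miss, keeps more sites by construction. The share inside a gene stayed between 51.3% and 73.6% under the alternatives, and the median width between 84 and 139 bp. The median fold was 4.11 to 5.44. With 1 library left out, the share within 10 kb of another queen-only site, 14.0%, ranged from 12.8% to 23.8%, and the share within 200 bp of a gene end, 5.31%, from 4.87% to 8.21%, the highest without drone replicate 1. The latter was 2.89% with no worker or drone peak within 500 bp. The ratio of the queen share of peaks in the 5 kb flanks to that of the other libraries was 1.16. With 1 queen library left out it was 0.941 and 0.903, so neither showed a queen excess. These values are lowered by construction, to an extent not computed, because the queen peaks in the sites stay in the total. Of 120 alternative values, 70 stayed within the limits set for the reported one and 50 moved. The limits differed by result: a fixed factor for counts of sites and a place among the first 12 for ranks. For shares and medians they were a counting interval, and for the flank ratio the SD of the queen libraries. Of the 12 highest ranked sites, 9 kept a place among the first 12 when ranked by fold. GC content and motif counts were not run, as no genome was used. No paired analysis was possible because the results come from no test.

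The lists limit what can be said in 3 ways. Queen peaks of the strength of a typical queen-only site had an overlapping peak in another list in only 52.4% to 74.8% of cases. The queen lists are the shortest, and a site with no call has no measured level.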
